A study of Rattus norvegicus with 36 samples.

Results

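The transcripts followed here were those of 10 genes of the NF-κB pathway, taken by their gene symbol from count tables that list 24275 genes. They encode 4 DNA-binding subunits (*Nfkb1*, *Nfkb2*, *Rela*, *Relb*), 3 inhibitors (*Nfkbia*, *Nfkbib*, *Nfkbie*), 2 parts of the IκB kinase complex (*Ikbkb*, *Ikbkg*) and *Tnip1*, a partner of the ubiquitin editor A20. Each symbol belonged to 1 gene ID, and all 10 genes passed the filter on low counts in every comparison.

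RNA was measured by poly-A sequencing in H9C2 cells, a rat cardiac myoblast line, after transfection with 25 nmol/L of a synthetic microRNA. The question was how miR-125b and 4 variants that differ at the 3′ end (3′ isomiRs) change transcripts in normoxia and hypoxia. The 6 mimics were a mimic control (MC), miR-125b, an isomiR with an A added (Plus A) and trimmed isomiRs that lack A (Trim A), AG (Trim AG) or AGU (Trim AGU), with 3 libraries for each mimic in each oxygen condition. Counts were used for 33 libraries in 11 groups, because no per-library count of Normoxia MC was analysed here. All groups shared the transfection of 24 h, and cells were then kept for 24 h in normoxia in fresh medium or in hypoxia (below 0.2% oxygen) in serum-free, low-glucose medium, so oxygen and medium cannot be told apart. The sample labels number the trimmed mimics Trim 1, Trim 2 and Trim 3, which are read here in the order in which the treatment protocol names the deletions. All libraries came from 1 cell line, and nothing in the labels says that replicates were separate cultures, so p-values measure the spread between these libraries.

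NF-κB is a family of dimeric transcription factors that drive genes of inflammation, cell survival and immunity. In resting cells the dimers are held in the cytoplasm by IκB proteins. The IκB kinase complex, with its scaffold NEMO, phosphorylates IκB and so frees RelA with p50 in the canonical arm, whereas processing of p100 frees RelB with p52 in the non-canonical arm. Several inhibitors, A20 and its partners are themselves made on NF-κB's order and close the loop. All values here are transcript levels, and neither protein nor nuclear NF-κB was measured.

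Apart from MC, whose sequence is not given here, the mimics shared their 5′ part. The sequences are printed to show that the isomiRs keep the seed (bases 2 to 8, in capitals) and differ only at the end. The miR-125b sequence was that of rno-miR-125b-5p in RefSeq, on the plus strand of build GRCr8 at chr11:29732588-29732609, and the 4 variants were derived from it by adding or removing the named letters.

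Plus A: uCCCUGAGacccuaacuugugaa
miR-125b: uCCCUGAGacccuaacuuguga
Trim A: uCCCUGAGacccuaacuugug
Trim AG: uCCCUGAGacccuaacuugu
Trim AGU: uCCCUGAGacccuaacuug

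Plus A has 23 bases, miR-125b 22, Trim A 21, Trim AG 20 and Trim AGU 19. The seed was the same 7 letters in each, so any difference between miR-125b and an isomiR was a difference between oligonucleotides with 1 seed. This does not hold for comparisons with MC.

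The members are among the genes whose own promoters can carry the sequence NF-κB binds. RefSeq promoters (build GRCr8) of 300 bases, 250 before to 50 after the gene start, were given for 8 of the 10 genes, and *Relb* and *Ikbkb* had no entry. The kappa-B consensus was searched by name on both strands, and 6 of the 8 promoters held it, against 13 of 43 promoters of other pathway genes and 7.6% of all 27457 promoters with a symbol. The windows are shown because these 6 genes include *Nfkb2*, *Ikbkg* and *Tnip1*, which were called against MC as described further on. *Nfkb2* was higher than in MC, whereas *Ikbkg* and *Tnip1* were lower. *Nfkb1*, *Nfkbia* and *Nfkbie* also held the match and were not called against MC with any mimic. Capitals mark the match, with 15 bases on each side, 5′ to 3′ along the gene.

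Nfkb1: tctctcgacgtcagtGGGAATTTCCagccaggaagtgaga
Nfkb2: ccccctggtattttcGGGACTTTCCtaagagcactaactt
Nfkbia: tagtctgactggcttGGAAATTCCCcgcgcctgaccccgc
Nfkbie: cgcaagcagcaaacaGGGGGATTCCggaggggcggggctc
Ikbkg: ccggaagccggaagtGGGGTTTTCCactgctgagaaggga
Tnip1: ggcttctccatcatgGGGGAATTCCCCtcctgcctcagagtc

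The windows lay at chr2:226805435-226805474 (minus strand) for *Nfkb1*, chr1:255108339-255108378 (plus) for *Nfkb2*, chr6:78597079-78597118 (minus) for *Nfkbia*, chr9:22948012-22948051 (minus) for *Nfkbie*, chrX:157372876-157372915 (plus) for *Ikbkg* and chr10:39585021-39585062 (minus) for *Tnip1*. The match began 31 bases before the gene start in *Nfkbia* and 20 before it in *Nfkb2*, counted as -31 and -20, and just inside the transcript in *Nfkb1* and *Ikbkg*. In *Tnip1* 4 matches on both strands overlapped in a run of 12 bases. The promoters of *Rela* and *Nfkbib* held no match in this window. These matches are letters in a window, and binding was not measured.

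Library totals were 28361216 to 42672584 counts, and the 3 Hypoxia Trim AG libraries were the deepest (39940087 to 42672584). Replicate 2 of Hypoxia Trim AGU stood farthest from its group, with a root mean square deviation of 0.616 on the log2 scale over expressed genes against 0.203 to 0.422 in the other 32 libraries. Per doubling of gene length, the deviation changed by 0.0763, -0.046 and -0.0303 in the 3 Hypoxia Trim A libraries, in replicate order. It changed by 0.054, -0.0542 and 0.000218 in Hypoxia Trim AG and by 0.1, -0.122 and 0.0212 in Hypoxia Trim AGU. In Normoxia Trim AGU it changed by -0.0524, 0.0564 and -0.00403. What this did to the values of single genes was not tested. In 2 libraries *Cav1*, the gene of caveolin, went against the label. In CPM, the count scaled to the library total, it was at 102 in the library labelled Normoxia miR-125b replicate 1 and 263 and 282 in the others of that group, but at 269 CPM in the library labelled Normoxia Plus A replicate 1 and 98.0 and 98.3 in the others. The 3 Hypoxia miR-125b libraries had 241 to 246 CPM of *Cav1* and the 3 Hypoxia Plus A libraries 93.9 to 100.0. Member results that rest on those 2 normoxia libraries are therefore also given without them where called, or where the adjusted p then crossed 0.05. The remaining member results stayed on the same side of 0.05 without them. Of the markers of the line, *Vim* was at 2470 CPM or more and *Myod1* at 17.1 or more in every library, whereas *Des* lay between 0.855 and 4.98 and the cardiac actin gene *Actc1* between 0.0664 and 35.0. *Myog* ran from 10.4 to 359 CPM and *Tnnt2* from 9.22 to 316, so markers of the line varied widely over the libraries of all groups. These ranges were not split by mimic or oxygen, so they include any difference between treatments. The leukocyte gene *Ptprc* and the macrophage gene *Adgre1* were at most 0.188 and 0.0726 CPM, and *Cd68* and *Csf1r* reached 2.43 and 1.92. In bulk RNA, fewer cells of a kind and less RNA per cell cannot be told apart.

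Levels between genes are compared per length, in FPKM (the deposited values, scaled to gene length and library size). *Rela* was the most abundant, with a median of 39.5 FPKM over the 33 libraries and a range of 33.8 to 48.8. *Nfkb2* followed with a median of 29.4 FPKM. *Tnip1* and *Nfkb1* had medians of 13.9 and 13.5, and *Nfkbib* and *Nfkbia* 11.7 and 11.6. The kinase subunits were lower, at 8.92 for *Ikbkb* and 7.26 for *Ikbkg*, next to *Nfkbie* at 7.03. *Relb* had the lowest median, 3.23 FPKM, and ran from 1.25 to 7.2.

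**Figure D1:**
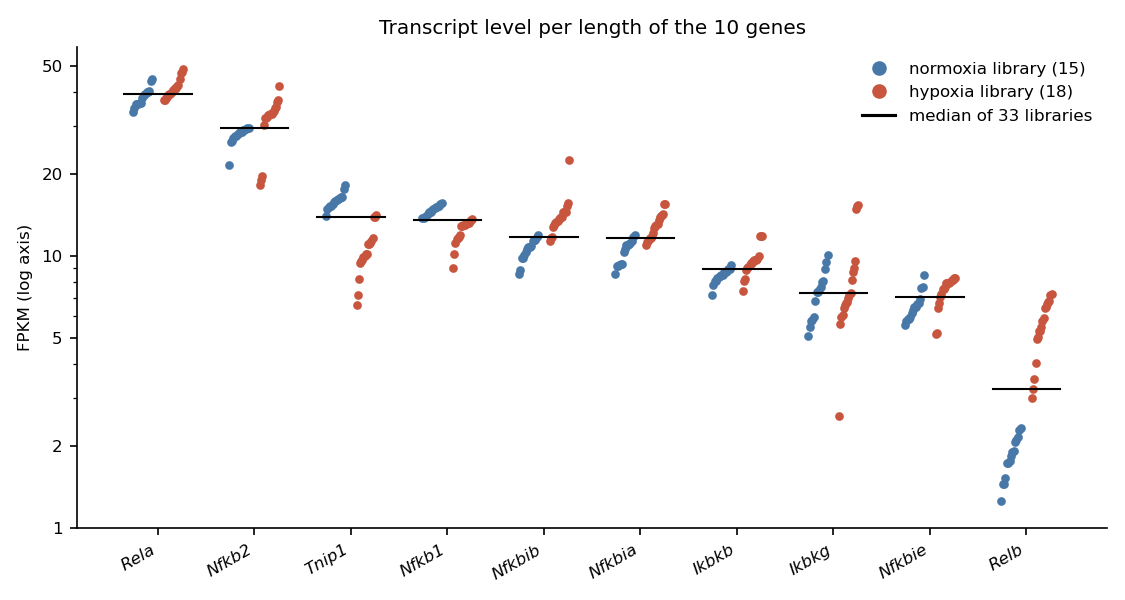
Transcript level per length (FPKM, log axis) of the 10 genes in each of 15 normoxia (blue) and 18 hypoxia (red) libraries, ordered by the median of all 33 (black line). *Rela* was highest with a median of 39.5 FPKM, *Relb* lowest with 3.23, and for *Relb* every hypoxia library lay above every normoxia library.

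Within a gene, libraries are compared in CPM. A gene was called when edgeR's quasi-likelihood test gave a Benjamini-Hochberg adjusted p below 0.05 over all genes tested and a fold of at least 1.5, and "rose" and "fell" are used only for such calls. Fold changes come from the TMM-scaled fit, so they can differ somewhat from the ratio of CPM means.

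Transfection of miR-125b or any isomiR in hypoxia went with more transcript of the non-canonical subunits and less of the kinase scaffold. In all 5 comparisons with Hypoxia MC, *Nfkb2* and *Relb* rose and *Ikbkg* fell, and *Tnip1* also fell with Trim AG. Thus 3 of 10 members were called with miR-125b, Plus A, Trim A and Trim AGU, and 4 with Trim AG. The share of all tested genes called was 21.9% after miR-125b, 24.8% after Plus A, 28.1% after Trim A, 37.2% after Trim AG and 23.8% after Trim AGU, so the members' counts were close to the background and are not a result about the group. The 5 comparisons share the 3 Hypoxia MC libraries. The members' median log2 fold change lay between -0.01 and 0.03, beside -0.02 to 0.00 for all genes.

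**Figure D2:**
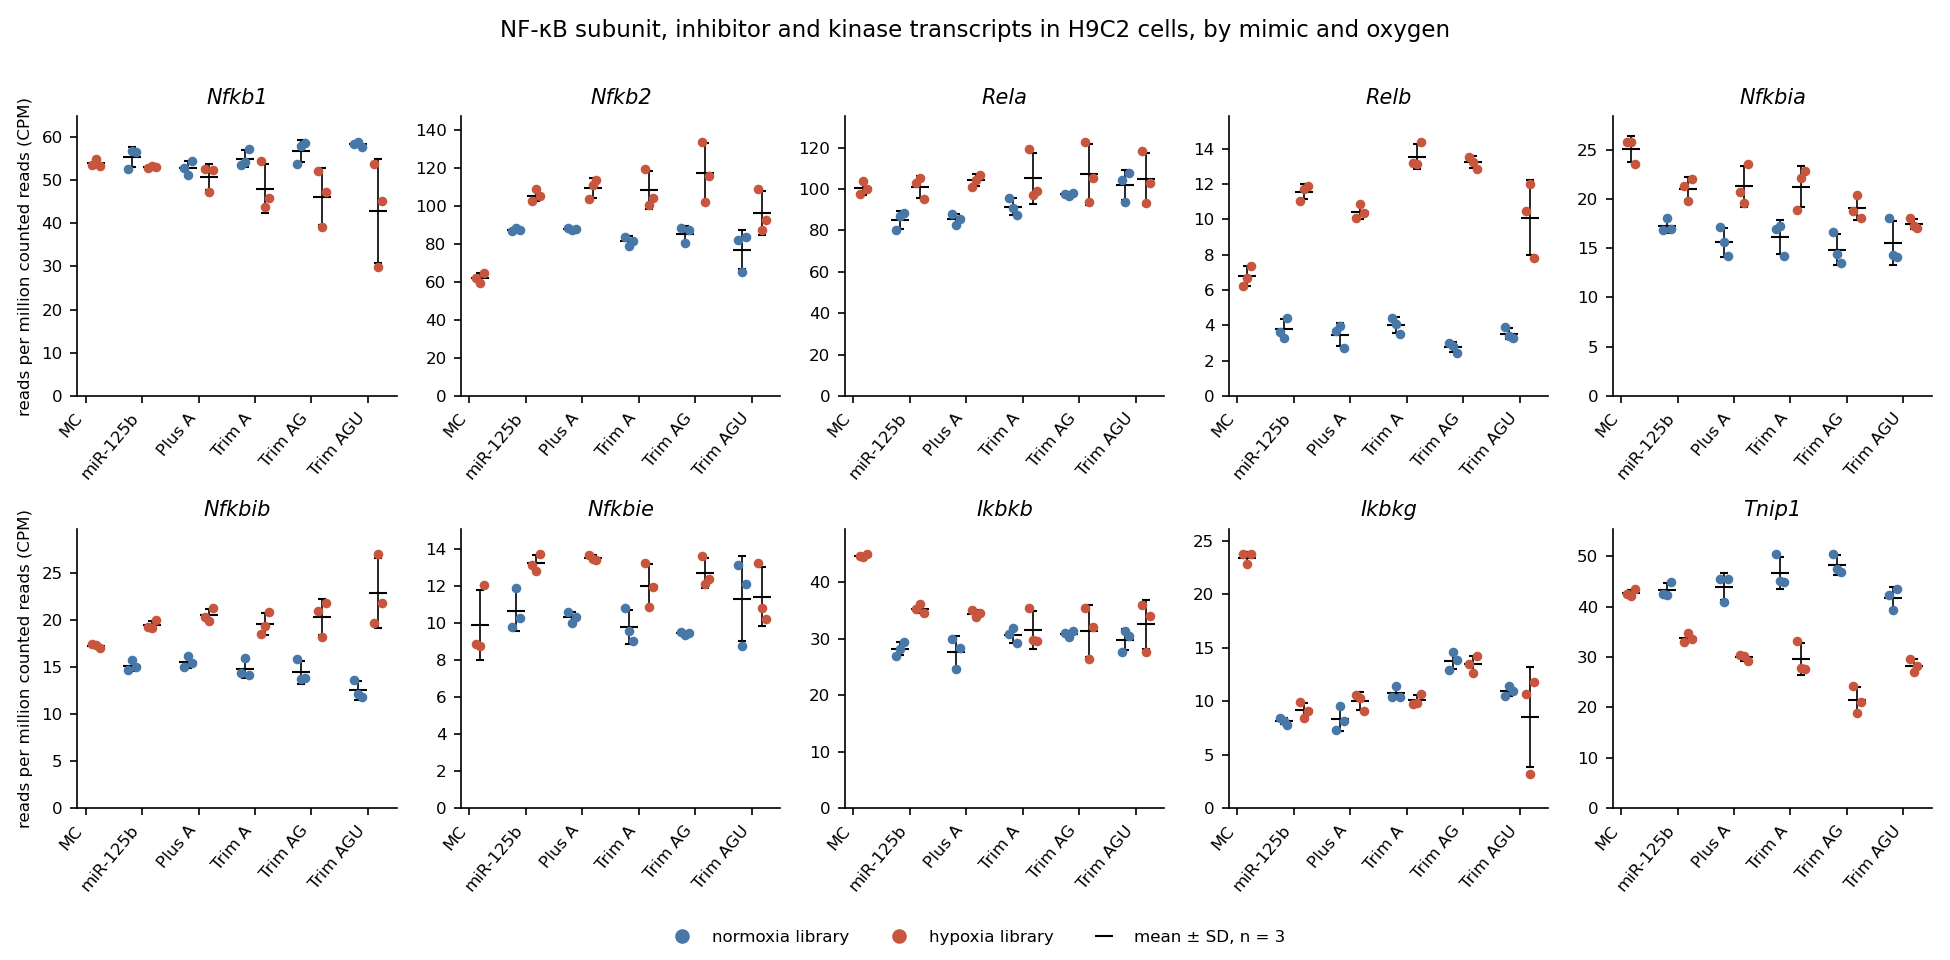
Level of each of the 10 genes in CPM (count scaled to the library total) for every library, by mimic, with normoxia libraries in blue and hypoxia libraries in red and the mean ± SD (n = 3) in black. Hypoxia MC was the highest group for *Ikbkg* (23.4 CPM) and *Ikbkb* (44.7 CPM) and the lowest for *Nfkb2* (62.0 CPM).

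*Nfkb2* encodes p100, the precursor of p52 and itself an IκB-like inhibitor (gene ID ENSRNOG00000019311, chromosome 1, 266053002 to 266059256, plus strand, in the build of the tables, which is not named in the sources used here). In Hypoxia MC its libraries had 62.2, 59.3 and 64.6 CPM. They had 102, 108 and 105 after miR-125b, 104, 111 and 114 after Plus A, 119, 101 and 104 after Trim A, 134, 102 and 116 after Trim AG, and 109, 87.3 and 92.3 CPM after Trim AGU. Every mimic library was above every control library, and the first replicates of Trim A, Trim AG and Trim AGU were the highest of their groups. Within each of these groups, the first replicate was also the library whose deviation rose most with gene length. In Normoxia Trim AGU the deviation rose most in the second replicate. That library had the lowest *Nfkb2* of its group, at 64.9 CPM beside 82.1 and 83.5. A link between gene length and the level of *Nfkb2* was not tested. Against MC the log2 fold change was 0.80 ± 0.0394 (SE) for miR-125b (n = 3 and 3, edgeR adjusted p = 3e-08), 0.84 ± 0.0524 after Plus A (7.1e-07), 0.85 ± 0.0785 after Trim A (8e-05), 0.98 ± 0.0979 after Trim AG (5e-05) and 0.77 ± 0.101 after Trim AGU (0.0031). All 5 calls held under every alternative tried, each library left out in turn included.

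*Relb* encodes the subunit that pairs with p52 and p100 (ENSRNOG00000033235, chromosome 1, 80517411 to 80544825, minus strand). Its 3 Hypoxia MC libraries had 6.25, 6.68 and 7.38 CPM. Values were 11.1, 11.7 and 11.9 after miR-125b, 10.1, 10.9 and 10.3 after Plus A, 13.2, 13.1 and 14.4 after Trim A, 13.6, 13.3 and 12.9 after Trim AG, and 10.5, 12 and 7.81 after Trim AGU. Every mimic library was above every control library, and the third Trim AGU library came nearest. *Relb* rose by 0.81 ± 0.106 (SE) on the log2 scale after miR-125b (edgeR adjusted p = 5.8e-05), 0.65 ± 0.11 after Plus A (0.0006), 1.05 ± 0.115 after Trim A (0.00018), 1.03 ± 0.11 after Trim AG (6.9e-05) and 0.73 ± 0.226 after Trim AGU (0.049). The Trim AGU call rested on little, since it was lost with library totals as the only scaling (edgeR adjusted p = 0.0727), without the filter on low counts (0.0632), and when any of 5 of the 6 libraries was left out.

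The canonical subunits *Rela* and *Nfkb1* were not called against MC with any mimic. *Rela* (ENSRNOG00000030888, chromosome 1, 220992770 to 221003249, plus strand), the main activating subunit, had 97.55, 104 and 99.98 CPM in Hypoxia MC. Its other hypoxia libraries ran from 93 to 122.8 CPM, and the groups overlapped in all 5 comparisons. The log2 fold change lay between 0.04 and 0.20 and edgeR's adjusted p between 0.16 and 0.41, with a highest upper limit of the 95% interval of 0.43 (Trim AGU). *Nfkb1* (ENSRNOG00000023258, chromosome 2, 240773456 to 240866689, minus strand), which gives p105 and p50, had 53.5, 54.8 and 53.4 CPM in Hypoxia MC and a log2 fold change between -0.20 and 0.01, with edgeR's adjusted p between 0.19 and 0.79. The second library of Hypoxia Trim AGU had 29.8 CPM of *Nfkb1*, beside 53.7 and 45.1 in its group, and was the lowest of all 33 libraries. A change of 1.5-fold in either subunit lay outside the 95% interval of every comparison with MC except for *Nfkb1* with Trim AGU, where the interval ran from -0.61 to 0.20.

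The inhibitors moved by less than 1.5-fold and not in 1 direction. *Nfkbia* (ENSRNOG00000007390, chromosome 6, 76267228 to 76270457, minus strand) encodes IκBα, the fast NF-κB-induced inhibitor, and had 25.8, 25.8 and 23.5 CPM in Hypoxia MC, its highest group. It was at 21.3, 19.8 and 22 with miR-125b (log2 fold change -0.21 ± 0.0665, edgeR adjusted p = 0.017) and at 18.7, 20.4 and 18 with Trim AG (-0.33 ± 0.0893, 0.012). It did not pass with Plus A (-0.21, adjusted p = 0.051), where the libraries overlapped, nor with Trim A (-0.19, 0.14) or Trim AGU (-0.38, 0.055), where they did not. *Nfkbib* (ENSRNOG00000020063, chromosome 1, 86941074 to 86948845, minus strand), the gene of IκBβ, differed the other way. Its libraries had 17.1 to 17.4 CPM in Hypoxia MC and 18.2 to 27 with the 5 mimics, so no library overlapped. Its log2 fold change was 0.21 ± 0.059 with miR-125b (edgeR adjusted p = 0.01), 0.27 ± 0.0685 with Plus A (0.007) and 0.30 ± 0.0901 with Trim AG (0.02), and it missed the threshold with Trim A (0.05) and Trim AGU (0.06).

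*Nfkbie* (ENSRNOG00000019907, chromosome 9, 17828408 to 17835240, minus strand), the gene of IκBε, showed how 1 control library can set a call. In Hypoxia MC it had 8.86, 8.77 and 12.1 CPM, and the third value lay inside the range of the mimics in hypoxia (10.2 to 13.8). Its log2 fold change was 0.46 ± 0.124 with miR-125b (edgeR adjusted p = 0.0081), 0.47 ± 0.127 with Plus A (0.0091) and 0.43 ± 0.14 with Trim AG (0.027), each under 1.5-fold. Without that control library the same comparisons gave 0.62, 0.63 and 0.59, which passed both thresholds.

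Both members of the IκB kinase complex, *Ikbkg* and *Ikbkb*, were highest in Hypoxia MC. *Ikbkg* encodes NEMO, the scaffold that links the kinase to upstream ubiquitin chains (ENSRNOG00000060936, chromosome X, 156257173 to 156270748, listed on the minus strand in the tables and on the plus strand in GRCr8). It had 23.8, 22.8 and 23.8 CPM in Hypoxia MC. It had 9.9, 8.45 and 9.14 CPM after miR-125b, 10.6, 10.3 and 9.09 after Plus A, 9.72, 9.88 and 10.7 after Trim A, 13.5, 12.6 and 14.2 after Trim AG, and 10.7, 3.2 and 11.8 after Trim AGU. Every mimic library was below every control library, and the second Trim AGU library was far below the others of its group.

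For *Ikbkg* the log2 fold change against MC was -1.32 ± 0.0763 (SE) after miR-125b (edgeR adjusted p = 1e-07), -1.20 ± 0.0849 after Plus A (1.6e-06), -1.17 ± 0.0848 after Trim A (2.6e-05), -0.74 ± 0.083 after Trim AG (9.5e-05) and -1.34 ± 0.4 after Trim AGU (0.044). As a fold this was 2.49 lower with miR-125b and 1.67 lower with Trim AG. Without the second Trim AGU library the log2 fold change of *Ikbkg* was -0.98 (edgeR adjusted p = 0.000147), and leaving out any other library of that comparison raised the adjusted p to between 0.06 and 0.123. *Ikbkb* (ENSRNOG00000019073, chromosome 16, 74177215 to 74230815, plus strand), the gene of the catalytic subunit IKKβ, had 44.7, 44.5 and 45.0 CPM in Hypoxia MC and 26.3 to 36.1 with the mimics in hypoxia. The groups did not overlap. Its log2 fold change was -0.30 ± 0.0441 with miR-125b (edgeR adjusted p = 0.00012), -0.35 after Plus A (0.00019), -0.46 after Trim A (0.002) and -0.45 after Trim AG (0.0042), each under 1.5-fold. Trim AGU gave -0.32 (edgeR adjusted p = 0.052).

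*Tnip1* encodes ABIN-1, which binds ubiquitin chains and A20 and restrains NF-κB signalling (ENSRNOG00000010370, chromosome 10, 40255776 to 40296470, minus strand). It had 42.5, 42.1 and 43.5 CPM in Hypoxia MC. It had 33, 34.7 and 33.6 CPM after miR-125b, 30.5, 30.2 and 29.1 after Plus A, 33.2, 27.8 and 27.7 after Trim A, 24.3, 18.9 and 21 after Trim AG, and 29.6, 27 and 28.1 after Trim AGU. No mimic library reached the controls, and all 3 Trim AG libraries were below the other hypoxia libraries. Log2 fold changes of *Tnip1* were -0.30 ± 0.0455 (SE) after miR-125b (edgeR adjusted p = 0.00017), -0.49 ± 0.0527 after Plus A (2.8e-05), -0.48 ± 0.0817 after Trim A (0.0015), -0.93 ± 0.0917 after Trim AG (4.6e-05) and -0.45 ± 0.0971 after Trim AGU (0.016), and of these the Trim AG value alone passed 1.5-fold.

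**Figure D3:**
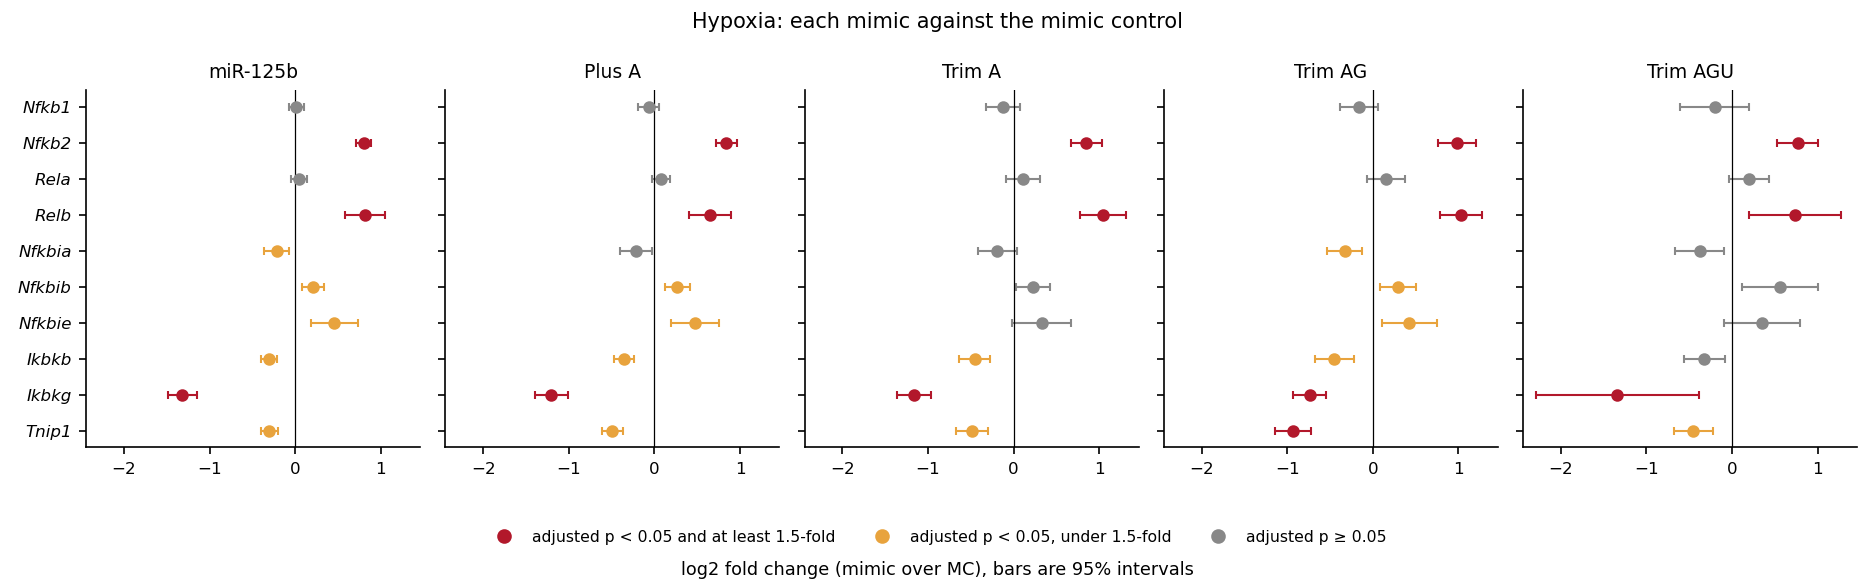
Log2 fold change of the 10 genes in hypoxia for each mimic over MC (points) with its 95% interval (bars), from edgeR's quasi-likelihood fit of 3 against 3 libraries, in red where called, in orange where the adjusted p alone passed and in grey otherwise. *Nfkb2* (0.77 to 0.98) and *Relb* (0.65 to 1.05) were above 0 and *Ikbkg* (-1.34 to -0.74) below 0 with every mimic, and *Tnip1* was lowest with Trim AG (-0.93).

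The isomiRs were then set against miR-125b itself, first in hypoxia. Plus A gave 0 called members of 10 (2.03% of all genes were called), Trim A 0 (0.873%), Trim AG 1 (19.3%) and Trim AGU 0 (3.75%). In the comparisons with 0 calls DESeq2 also called 0 members, and edgeR's unadjusted p was below 0.05 for 1 member with Plus A, 1 with Trim A and 0 with Trim AGU. The 4 comparisons share the 3 Hypoxia miR-125b libraries. The call was *Tnip1*, which had 33, 34.7 and 33.6 CPM with miR-125b and 24.3, 18.9 and 21 with Trim AG, without overlap (log2 fold change -0.64 ± 0.0924, edgeR adjusted p = 0.0011). Without the second Trim AG library, its lowest, the log2 fold change was -0.57 (adjusted p = 0.000531), just under 1.5-fold. Plus A gave a smaller difference of *Tnip1* in the same direction, with 30.5, 30.2 and 29.1 CPM (-0.19 ± 0.0536, edgeR adjusted p = 0.041).

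*Ikbkg* differed between the same groups by nearly as much, in the other direction. Its values of 13.5, 12.6 and 14.2 CPM with Trim AG stood above the 9.9, 8.45 and 9.14 with miR-125b, without overlap (log2 fold change 0.57 ± 0.103, edgeR adjusted p = 0.0031). That fold of 1.49 was just under the threshold, and *Ikbkg* passed it without the filter on low counts (0.59), with the Trim AG libraries thinned to the median depth (0.63), and without replicate 1 of Hypoxia miR-125b (0.64) or replicate 2 of Hypoxia Trim AG (0.61). *Nfkb2* and *Relb*, the members that rose with every mimic, had no adjusted p below 0.05 between an isomiR and miR-125b in hypoxia (edgeR, 0.09 to 0.81). Their log2 fold changes were 0.04 and -0.17 after Plus A, 0.04 and 0.23 after Trim A, 0.17 and 0.21 after Trim AG, and -0.04 and -0.09 after Trim AGU. The 95% intervals bounded the *Nfkb2* difference at -0.07 to 0.14 with Plus A and -0.04 to 0.38 with Trim AG, but for *Relb* with Trim AGU the interval ran from -0.60 to 0.41.

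In normoxia, Plus A against miR-125b gave 0 called members and 0.0% of 14781 genes called by edgeR. DESeq2 called 0 members and 1 gene, and edgeR's unadjusted p was below 0.05 for 0 members and 404 genes. Without the 2 libraries whose *Cav1* level went against the label, 166 genes and 0 members were called by edgeR, and each member's log2 fold change lay between -0.21 (*Nfkbia*) and 0.17 (*Ikbkg*). Trim A gave 0 called members (0.414% of all genes), Trim AG 1 (13.9%) and Trim AGU 0 (11.4%). DESeq2 also called 0 members for Trim A and Trim AGU, where edgeR's unadjusted p was below 0.05 for 1 and 3 members. The 4 comparisons share the 3 Normoxia miR-125b libraries.

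The normoxia call was the kinase scaffold. *Ikbkg* had 8.43, 8.18 and 7.82 CPM in Normoxia miR-125b and 13, 14.6 and 13.8 in Normoxia Trim AG, and rose by 0.72 ± 0.101 on the log2 scale (edgeR adjusted p = 0.00057). Without the doubted miR-125b library the value was 0.75 (adjusted p = 0.00095). The other trimmed mimics lay between, with 10.4, 11.4 and 10.4 CPM for Trim A (0.41, adjusted p = 0.083) and 10.5, 11.4 and 11 for Trim AGU (0.42, adjusted p = 0.028, and 0.05 without the doubted library). *Relb* was lower with Trim AG, at 2.99, 2.82 and 2.46 CPM against 3.63, 3.31 and 4.41 (-0.50 ± 0.172, edgeR adjusted p = 0.045), which was under 1.5-fold and gave an adjusted p of 0.062 without the doubted library. Without replicate 2 of Normoxia miR-125b the *Relb* value was -0.59 (adjusted p = 0.0426) and passed both thresholds. *Rela* had 97.8, 96.6 and 98.2 CPM with Trim AG against 80.3, 86.8 and 88.2 (0.15 ± 0.0532, edgeR adjusted p = 0.048, and 0.086 without the doubted library).

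Hypoxia was compared with normoxia within each mimic. *Relb* rose with all 5 mimics, and *Tnip1* fell with Plus A, Trim A and Trim AG. The called members were 1 of 10 for miR-125b (20.9% of all genes were called), 2 after Plus A (22.8%), 2 after Trim A (26.5%), 2 after Trim AG (32.8%) and 2 after Trim AGU (27.0%), all shares near or below the background. The members' median log2 fold change was 0.20 for miR-125b, 0.21 after Plus A, 0.17 after Trim A, 0.25 after Trim AG and 0.12 after Trim AGU, beside 0.00 to 0.02 for all genes.

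Of the 10 members *Relb* had the widest ratio of group means, the highest being 4.93 times the lowest. Its normoxia libraries had 3.63, 3.31 and 4.41 CPM after miR-125b, 3.7, 3.96 and 2.72 after Plus A, 4.41, 4.1 and 3.52 after Trim A, 2.99, 2.82 and 2.46 after Trim AG, and 3.91, 3.38 and 3.3 after Trim AGU. All 18 hypoxia libraries, from 6.25 CPM in Hypoxia MC upward, were above all 15 normoxia libraries. The rise from normoxia to hypoxia was 1.53 ± 0.135 on the log2 scale after miR-125b (edgeR adjusted p = 1.7e-05), 1.49 ± 0.154 after Plus A (4e-05), 1.68 ± 0.14 after Trim A (3.2e-05), 2.27 ± 0.135 after Trim AG (2.8e-06) and 1.57 ± 0.253 after Trim AGU (0.0046). Without the doubted libraries it was 1.502 with miR-125b and 1.511 with Plus A. In the order of group means, Hypoxia Trim A (13.6 CPM) and Hypoxia Trim AG (13.2) overlapped, Hypoxia miR-125b (11.6) stood below them, and Hypoxia Plus A (10.4) and Hypoxia Trim AGU (10.1) overlapped each other. Hypoxia Trim AGU also overlapped Hypoxia miR-125b, since its second library had 12.02 CPM. Hypoxia MC (6.77) was apart on both sides, and the 5 normoxia groups (2.76 to 4.01) each overlapped the next.

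*Tnip1* ran the other way. Its normoxia libraries had 39.3 to 50.4 CPM, a range that also held the 3 Hypoxia MC libraries, and its libraries of the 5 mimics in hypoxia had 18.9 to 34.7. For hypoxia over normoxia the log2 fold change was -0.44 ± 0.0549 after miR-125b (edgeR adjusted p = 0.00015), -0.66 ± 0.0677 after Plus A (3.6e-05), -0.74 ± 0.094 after Trim A (0.00033), -1.17 ± 0.0966 after Trim AG (1.7e-05) and -0.52 ± 0.128 after Trim AGU (0.02), of which the first and last were under 1.5-fold. With library totals as the only scaling the Plus A value of *Tnip1* was -0.55 (adjusted p = 0.00014), under 1.5-fold, and without the doubted library it was -0.66. For MC the same comparison was not analysed here.

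*Nfkb2* and the inhibitors lay higher in hypoxia, mostly by less than 1.5-fold, whereas *Nfkb1* lay lower. *Nfkb2* had 64.9 to 88.4 CPM in normoxia and 87.3 to 134 with the 5 mimics in hypoxia, and its log2 fold change was 0.19 after miR-125b (edgeR adjusted p = 0.0055), 0.21 after Plus A (0.012), 0.33 after Trim A (0.0094), 0.46 after Trim AG (0.0038) and 0.36 after Trim AGU (0.098). Hypoxia MC, at 62.0 ± 2.65 CPM (SD, n = 3), was the lowest group and separate from the next. *Nfkbib* was higher in hypoxia in all 5, by 0.28 after miR-125b (0.0091), 0.29 after Plus A (0.017), 0.33 after Trim A (0.024), 0.50 after Trim AG (0.0036) and 0.92 after Trim AGU (edgeR adjusted p = 0.015).

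The Trim AGU value of *Nfkbib* was a call, with 13.7, 12.1 and 11.8 CPM in normoxia and 19.7, 27 and 21.8 in hypoxia, where the highest library was the second replicate, the one that stood farthest from its group over all genes. Without that library the log2 fold change of *Nfkbib* was 0.70 (edgeR adjusted p = 0.0038), and without replicate 2 or 3 of Normoxia Trim AGU the adjusted p was 0.0646 and 0.0748. *Nfkbia* had 13.5 to 18.1 CPM in normoxia and 17.1 to 23.6 with the 5 mimics in hypoxia, with log2 fold changes of 0.20 to 0.37, and of these miR-125b, Plus A and Trim AG had an edgeR adjusted p below 0.05 (0.047, 0.021 and 0.02). Without the doubted library the miR-125b value of *Nfkbia* had an adjusted p of 0.09. *Nfkbie* had a log2 fold change of 0.05 to 0.43, with an edgeR adjusted p below 0.05 after Plus A (0.027) and Trim AG (0.0069).

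*Nfkb1* had 51.3 to 58.9 CPM in normoxia and 29.8 to 54.4 with the 5 mimics in hypoxia, and its log2 fold change was -0.14 after miR-125b (edgeR adjusted p = 0.044), -0.17 after Plus A (0.055), -0.27 after Trim A (0.031), -0.29 after Trim AG (0.036) and -0.42 after Trim AGU (0.11). Without the doubted library the Plus A value of *Nfkb1* had an adjusted p of 0.043. *Rela* differed by 0.08 to 0.18, with an adjusted p below 0.05 after miR-125b (0.032, and 0.063 without the doubted library) and Plus A (0.019). *Ikbkb* differed by -0.03 to 0.24 and passed 0.05 after miR-125b alone (edgeR adjusted p = 0.0061), and also after Plus A without the doubted library (0.032). *Ikbkg* did not pass the threshold with any mimic, with log2 fold changes from -0.35 (Trim AGU) to 0.15 (Plus A) and edgeR's adjusted p from 0.26 to 0.81.

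**Figure D4:**
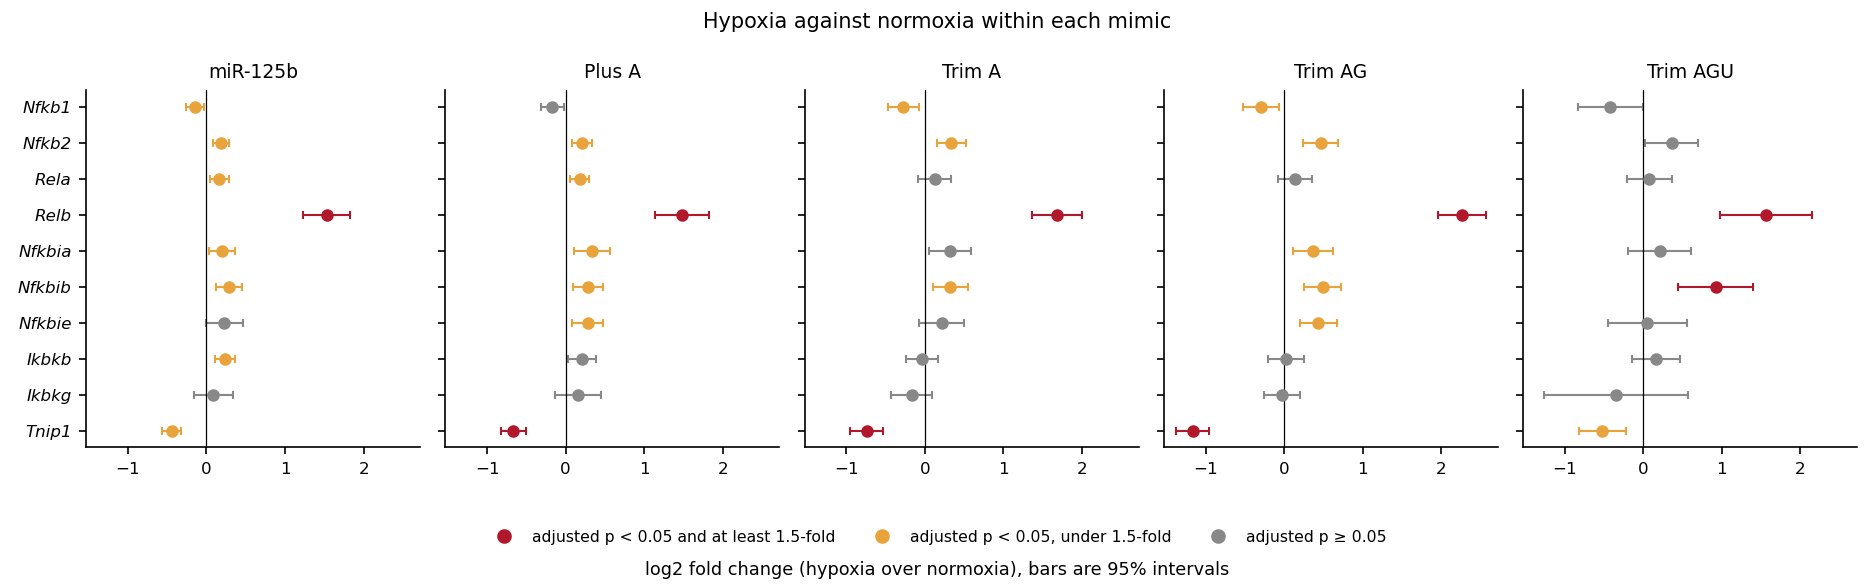
Log2 fold change of the 10 genes for hypoxia over normoxia within each mimic (points) with its 95% interval (bars), from edgeR's quasi-likelihood fit of 3 against 3 libraries, in red where called, in orange where the adjusted p alone passed and in grey otherwise. *Relb* was highest with every mimic (1.49 to 2.27), and *Tnip1* lowest in every panel (-0.44 to -1.17), with both extremes in Trim AG.

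Whether the difference between an isomiR and miR-125b depended on oxygen was tested with an interaction term over 4 groups of 3 libraries. With Trim AG 2 of 10 members were called, beside 11.3% of all genes. No member was called with Plus A (0.0193% of all genes), Trim A (0.605%) or Trim AGU (0.966%), where DESeq2 also called 0 members and edgeR's unadjusted p was below 0.05 for 1, 2 and 1 members.

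*Relb* and *Tnip1* were the members called with Trim AG, each with a larger response to oxygen than with miR-125b. *Relb* went from 3.63, 3.31 and 4.41 to 11.1, 11.7 and 11.9 CPM with miR-125b, and from 2.99, 2.82 and 2.46 to 13.6, 13.3 and 12.9 with Trim AG. The interaction was 0.70 ± 0.181 on the log2 scale (95% interval 0.31 to 1.09, edgeR adjusted p = 0.015), and 0.73 without the doubted library. It was 0.58 (adjusted p = 0.0347) without replicate 3 of Normoxia miR-125b, just under 1.5-fold. *Tnip1* went from 42.5, 42.4 and 44.8 to 33, 34.7 and 33.6 CPM with miR-125b, and from 50.4, 47.4 and 46.8 to 24.3, 18.9 and 21 with Trim AG. Its interaction was -0.76 ± 0.108 (95% interval -0.99 to -0.53, edgeR adjusted p = 0.00054), and -0.75 (0.0017) without the doubted library. *Ikbkg*, in contrast, was higher with Trim AG in both conditions, and its interaction of -0.16 (95% interval -0.45 to 0.14, adjusted p = 0.45) did not pass the threshold. The Hypoxia Trim AG libraries were the deepest of the series, and with them thinned to a total of 29923694 the interaction was 0.73 for *Relb* and -0.76 for *Tnip1*.

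**Figure D5:**
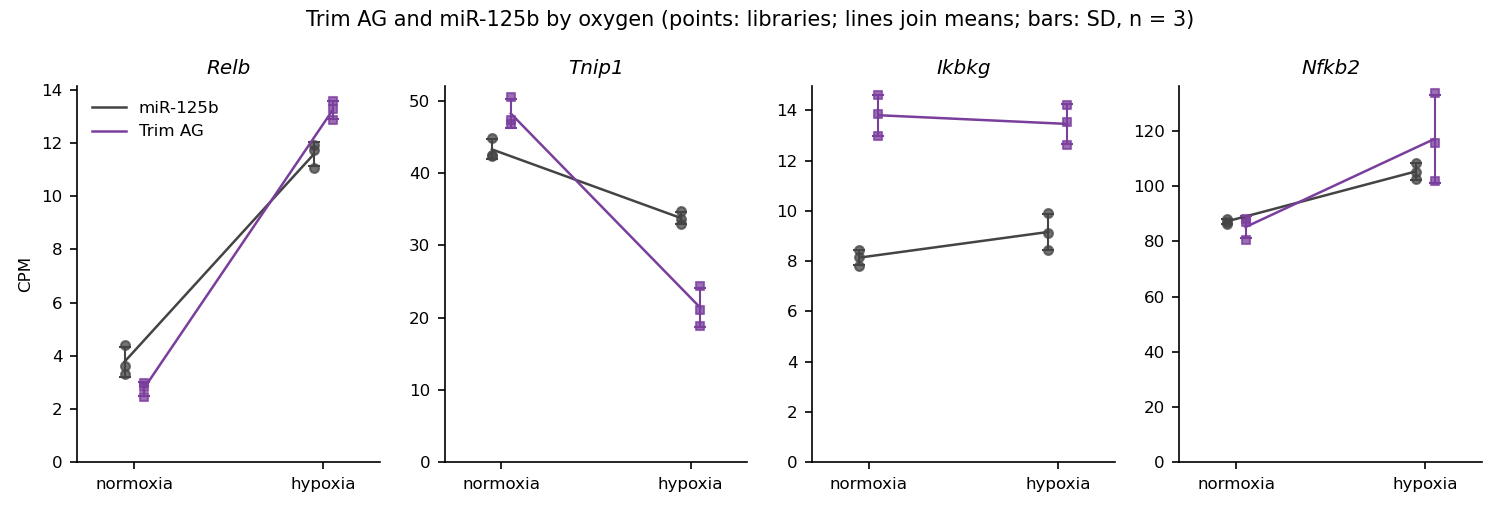
CPM of 4 genes in each library with miR-125b (grey circles) and Trim AG (purple squares) in normoxia and hypoxia, with lines joining the group means and bars of the SD (n = 3). The lines cross for *Tnip1*, whose means in hypoxia were 21.4 CPM with Trim AG and 33.8 with miR-125b, and for *Relb* (13.2 and 11.6), whereas for *Ikbkg* the Trim AG means of 13.8 and 13.5 CPM were above the miR-125b means of 8.14 and 9.16 in both conditions.

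Around the 10 members, 55 other genes of the pathway were listed, of which 52 were in the tables and 46 were tested against Hypoxia MC. After miR-125b 3 rose and 10 fell, after Plus A 3 and 12, after Trim A 3 and 10, after Trim AG 8 and 10, and after Trim AGU 2 and 10. The list's median log2 fold change was -0.12, -0.24, -0.23, -0.11 and -0.18 in that order, beside -0.02 to 0.00 for all genes. The called share of the list was 28.3% after miR-125b, 32.6% after Plus A, 28.3% after Trim A, 39.1% after Trim AG and 26.1% after Trim AGU, close to the 21.9%, 24.8%, 28.1%, 37.2% and 23.8% of all genes given above. Of all genes, 12.5% were called lower after miR-125b, 14.4% after Plus A, 15.7% after Trim A, 20.2% after Trim AG and 12.4% after Trim AGU. The list's share called lower was 26.1% after Plus A and 21.7% after each of the others. This was above the shares of all genes, but after Trim AG it was close to their 20.2%. The list was not tested as a set. It holds 17 NF-κB target genes, of which 10 were tested. Of the tested targets, 0 rose and 4 fell with miR-125b, and 0 rose and 5 fell with Plus A. With Trim A and with Trim AGU 0 rose and 3 fell, and with Trim AG 2 rose and 3 fell. With 10 genes, nothing particular to the targets is read from these counts.

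*Chuk*, the gene of IKKα, the other catalytic subunit of the IκB kinase complex, is on the list and is named after its values were seen, beside the members *Ikbkb* and *Ikbkg*. It had 58.2 ± 3.82 CPM (SD, n = 3) in Hypoxia MC, 70.7 after miR-125b, 83.6 after Plus A, 82.3 after Trim A, 106 after Trim AG and 66.5 after Trim AGU. *Chuk* rose by 0.92 ± 0.114 (SE) on the log2 scale after Trim AG (edgeR adjusted p = 0.00016). The values of 0.32 after miR-125b, 0.54 after Plus A and 0.55 after Trim A had edgeR adjusted p of 0.00022, 9.1e-05 and 0.0011 but were under 1.5-fold, and 0.32 after Trim AGU had 0.26. Among these 6 groups the mean of *Chuk* was thus lowest in Hypoxia MC, whereas those of *Ikbkg* and *Ikbkb* were highest there.

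Of the genes called against MC in 1 direction in at least 4 comparisons, the 6 with the largest median change are given. *Tnfrsf1b*, the gene of TNF receptor 2, fell with all 5 mimics, from 1.66 ± 0.219 CPM (SD, n = 3) in Hypoxia MC to 0.236 to 0.528, with a log2 fold change between -2.66 and -1.61. *Ikbke*, an IκB kinase relative induced by NF-κB, fell in all 5 from 38.6 ± 1.62 CPM to 19.1 with miR-125b and 9.57 with Trim AG (log2 fold changes -0.97 and -1.95, edgeR adjusted p = 9.5e-08 and 3.8e-06). *Vcam1*, an adhesion molecule and NF-κB target, fell in all 5 from 4.20 ± 0.199 CPM to between 1.22 and 2.52.

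*Csf1*, the macrophage growth factor gene, fell in all 5 from 145 ± 2.26 CPM to 93.7 ± 0.546 with miR-125b and 64.2 ± 15.1 with Trim AG (log2 fold changes -0.59 and -1.12). The chemokine gene *Cxcl1* fell in 4, with 6.04 ± 0.56 CPM in Hypoxia MC and 2.39 to 3.46 with the mimics, and had an edgeR adjusted p of 0.089 with Trim AGU. *Rel*, the fifth subunit gene, rose in 4, from 2.03 ± 0.388 CPM to between 3.24 and 3.72, and had 2.80 ± 1.15 CPM and an adjusted p of 0.23 with Trim AGU. *Nfkb2*, *Relb* and *Rel* were thus the subunit genes that rose against MC with miR-125b, Plus A, Trim A and Trim AG, and *Nfkb1* and *Rela* were not called with any mimic.

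The likeness of patterns is given as a description over the 11 group means, without a test, since groups share their oxygen condition and 14164 expressed genes were searched. The genes with a symbol of known kind most like *Relb* were *Zfp358* (Pearson r = 0.986), *Fam71f1* (0.986) and *Dapk1* (0.983), the last of which was at most 3.11 CPM. Those most like *Nfkbia* were *Fuca2* (0.99), *Alpk1* (0.984) and *Stx16* (0.979), the first of which was at most 2.68 CPM.

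For Normoxia MC there were the authors' group means alone, beside those of Normoxia Plus A, with no SD or n. *Ikbkg* had an authors' mean of 247.8 with Plus A and 516.9 with MC, a ratio of 0.479. *Nfkb2* had 2608 and 1810, a ratio of 1.44, and *Nfkbie* 306.7 and 227.9, a ratio of 1.35. *Relb* and *Tnip1* differed least, with ratios of 1.04 and 1.01, and the ratio was 0.77 for *Ikbkb*, 0.782 for *Nfkbia* and 0.931 to 0.947 for *Rela*, *Nfkbib* and *Nfkb1*. These means have no replicate check, and 1 of the libraries labelled Normoxia Plus A is among those whose *Cav1* level went against the label.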

How the data were processed

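Per the labels, poly-A, non-stranded libraries of H9C2 cells were sequenced on Illumina instruments, and the submitters' processing notes name HISAT2 and StringTie without versions. The genome build and the counting tool are not given in the sources used here. The authors deposited a table for each pair of groups, with a raw count and an FPKM value of each gene in each library. In 1 table (Normoxia Plus A and Normoxia MC) the authors gave group means, a normalised expression signal that was used as a value only. The authors' own DESeq2 fold changes and p-values in these tables were not used, nor were 66 columns of normalised values. Because libraries were not stranded, reads from antisense transcripts cannot be told apart, and no listed gene overlapped a member.

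Counts of 33 libraries were joined on gene ID, and a gene missing from a table was set to 0 (its largest count elsewhere was 1). Tables disagreed on 0 counts. Each pair of groups was fitted on its own libraries with edgeR 4.0.16 in R 4.3.3 (filterByExpr, TMM, quasi-likelihood test, Benjamini-Hochberg over all genes tested). Calls needed an adjusted p below 0.05 and a fold of at least 1.5, after the study's threshold. The intervals use the fit's standard error and degrees of freedom. Alternatives were DESeq2 1.42.0, library totals alone, no filter, 1 fit over all libraries, no fold threshold, a replicate block, single libraries left out, the 2 doubted libraries left out and, added after seeing the data, thinned Trim AG libraries. The code was tested on simulated data. Likeness used log2 CPM with a prior count of 2, and symbols that are only clone or locus names were left out. The same replicate number did not pair libraries: the correlation of their deviations from the group means was -0.22 to 0.111 over 18 pairs of groups.

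The members, gene lists and tests were chosen with earlier results of these data known. All 10 members are named. Other pathway genes are named where called in at least 4 of the 5 comparisons with Hypoxia MC in 1 direction (the 6 with the largest median change). Genes with a like pattern are the 3 with the highest r for the member with the widest ratio of group means and for *Nfkbia*.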

Additional observations from a re-analysis of the deposited data

Results flagged for a closer look

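A pair of members had a response to oxygen with Trim AG that differed from that with miR-125b by the interaction test. *Relb* rose more from normoxia to hypoxia with Trim AG, by 0.70 on the log2 scale (edgeR adjusted p = 0.015). *Tnip1* fell more, by 0.76 on the log2 scale (a value of -0.76, edgeR adjusted p = 0.00054). The Hypoxia Trim AG libraries were deeper than the others and 1 Normoxia miR-125b library had a *Cav1* level against its label. With the first thinned the values were 0.73 and -0.76, and with the second left out 0.73 and -0.75. Without replicate 3 of Normoxia miR-125b the *Relb* value was 0.58 (edgeR adjusted p = 0.0347), under 1.5-fold. Trim AG differed from miR-125b at *Relb* by -0.50 in normoxia (edgeR adjusted p = 0.045) and by 0.21 in hypoxia (0.09). Groups of 3 libraries were not tested for single values that stand apart.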

How the results depend on the processing

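Of the 29 calls of a member, 23 held under every alternative, and none of the 71 member values with an adjusted p below 0.05 changed its direction. Without the fold threshold the members called were, against Hypoxia MC, 8 after miR-125b (59.5% of all genes), 7 after Plus A (56.6%), 5 after Trim A (52.1%), 8 after Trim AG (59.4%) and 4 after Trim AGU (29.9%), then, against miR-125b, 1 after Plus A (15.9%) and 2 after Trim AG (41.4%) in hypoxia, 3 after Trim AG (38.5%) and 1 after Trim AGU (25.0%) in normoxia, and, for hypoxia against normoxia, 8 after miR-125b (50.8%), 7 after Plus A (49.2%), 5 after Trim A (47.6%), 7 after Trim AG (54.7%) and 3 after Trim AGU (30.2%). Trim AG against miR-125b in hypoxia gave 2 calls instead of 1 without the filter and with thinned libraries. Library totals alone left 1 call (*Relb*) for oxygen with Plus A. The fit over all libraries gave 1 call for the Trim AGU interaction.

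With a replicate block, Trim AGU over oxygen gave 1 call, since *Nfkbib* had an adjusted p of 0.0519, and Trim AGU against MC gave 2, since *Relb* had 0.0922. The block changed no other call, and the numbers did not pair the libraries. Leaving out single libraries gave 1 to 2 calls for Trim AGU against MC, 1 to 2 for Trim AG against miR-125b in either oxygen condition, 3 to 4 for miR-125b and for Plus A against MC, 4 to 5 for Trim AG against MC, 1 to 2 for oxygen with Trim AGU, 1 to 2 for the Trim AG interaction and 0 to 1 for the Trim AGU interaction. The *Ikbkg* call of Trim AGU against MC was also lost with library totals alone (adjusted p = 0.0509), where *Tnip1* passed the fold (-0.59). The median of all genes then moved from -0.02 to -0.16 on the log2 scale in that comparison, from 0.01 to 0.12 for oxygen with Plus A, from -0.02 to -0.11 for Trim AGU over miR-125b in hypoxia and from 0.02 to -0.11 for the Trim AGU interaction. The share of calls that were higher moved from 48.0% to 33.8% for Trim AGU against MC, from 43.9% to 56.5% for oxygen with Plus A, from 44.8% to 55.4% for oxygen with miR-125b, and from 63.3% to 52.9% for the Trim AGU interaction. The cause was not tested. With 75 counts in its lowest library *Relb* was the thinnest member, and intervals were widest in Hypoxia Trim AGU, whose second library stood apart.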

Other observations

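Trim AG also differed from miR-125b at other genes of the pathway list, and the 4 given here were chosen after their values were seen. *Irak1*, a kinase below the interleukin-1 receptor, was at 80.0 CPM with Trim AG and 189 with miR-125b in hypoxia (log2 fold change -1.22, edgeR adjusted p = 3e-05) and at 108 and 194 in normoxia (-0.88, adjusted p = 1.4e-05). *Tradd*, an adaptor of TNF receptor 1, was lower in both conditions, by a log2 fold change of -1.01 in hypoxia (22.0 against 45.0 CPM, edgeR adjusted p = 6.1e-05) and -0.84 in normoxia (23.2 against 40.3 CPM, adjusted p = 6.2e-05). *Ptgs2*, the gene of cyclooxygenase 2, was higher with Trim AG in hypoxia (79.7 against 33.6 CPM, log2 fold change 1.26, adjusted p = 3.1e-05) and in normoxia (125 against 60.7 CPM, 1.00, adjusted p = 9.1e-05). *Il6* was higher in hypoxia, at 13.5 against 7.99 CPM (0.77, edgeR adjusted p = 0.0024), and was at 3.64 against 4.81 CPM in normoxia (-0.45, edgeR adjusted p = 0.044, under 1.5-fold). The *Il6* oxygen response differed between the 2 mimics by 1.203 on the log2 scale (adjusted p = 0.0015). Of the 45 other pathway genes tested, 6 rose and 6 fell with Trim AG against miR-125b in each oxygen condition, a share of 26.7%, beside 19.3% of all genes called in hypoxia and 13.9% in normoxia.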
